A study of Mus musculus with 60 samples.

Results

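The vesicular transmitter transporters and the dopamine transporter were followed through 60 RNA-sequencing libraries of mouse brain tissue, with members chosen by their gene names in the deposited tables. They were 7 of 47574 gene entries used: the vesicular glutamate transporters Slc17a7, Slc17a6 and Slc17a8, the vesicular inhibitory amino acid transporter Slc32a1, the vesicular acetylcholine transporter Slc18a3, the vesicular monoamine transporter Slc18a2 and the plasma membrane dopamine transporter Slc6a3. All 60 libraries came from mice labelled c57BL-6N and 3 months old, and rRNA-depleted RNA from the labelled cortex or the labelled striatum was sequenced. The Δ12 line carried a deletion in exon 12 of the huntingtin gene Htt made with CRISPR and a repair template, in +/+, Δ12/+ and Δ12/Δ12 mice. The KO line carried an imprecise deletion at the same exon that removed its splice donor, derived from a founder of the editing, in +/+ and KO/+ mice. Each of the 10 labelled groups of tissue, line and genotype held 6 libraries, 3 labelled male and 3 labelled female. The titles use the same sex and number in both labelled tissues of a line and genotype, so 2 libraries may come from 1 mouse, and tests between labelled tissues or over the libraries of a class treat them as independent. One library of the labelled striatal KO/+ group has a title that names the Δ12 line and was placed by its genotype label.

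A neuron releases glutamate, GABA, acetylcholine or a monoamine only if it has a transporter that moves that transmitter from the cytosol into vesicles against a proton gradient, so the transporter genes are widely used to name the transmitter of a neuron. In the forebrain, Slc17a7 (VGLUT1) marks most cortical and hippocampal glutamate neurons, Slc17a6 (VGLUT2) marks thalamic, hypothalamic and other subcortical glutamate neurons, and Slc17a8 (VGLUT3) is found in scattered cells such as cholinergic interneurons. Slc32a1 (VGAT) is used by GABA and glycine neurons, Slc18a3 (VAChT) by cholinergic neurons, Slc18a2 (VMAT2) by dopamine, noradrenaline, serotonin and histamine neurons, and Slc6a3 (DAT) by dopamine neurons. Projection neurons of the striatum are GABAergic, and the dopamine axons that reach the striatum have their cell bodies, where most of their mRNA lies, in the midbrain.

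The labelled tissue did not separate the libraries, so levels were described by an expression class set by the deposited FPKM (fragments counted per gene, scaled to gene length and library size) of the dopamine receptor gene Drd2. The 30 libraries with a Drd2 FPKM under 25 were called cortex-like and the 30 others striatum-like. The highest Drd2 FPKM in the first class was 18.5 and the lowest in the second was 29.4. Every Δ12-line +/+ and Δ12/+ library and the labelled male Δ12/Δ12 libraries were cortex-like, the labelled female Δ12/Δ12 libraries and all KO-line libraries were striatum-like, and the class went with the labelled tissue in 30 of 60 libraries. Of the class markers, 8 of 8 genes of striatal projection neurons were higher in every striatum-like library than in every cortex-like one, whereas 0 of 7 genes of cortical excitatory neurons were lower without overlap. The summed level of those 7 genes was 40.4 to 78.1 in cortex-like and 21.7 to 42.9 in striatum-like libraries, and cortex-like libraries also held markers of olfactory bulb and claustrum at a summed level of 194 to 518 against 27.3 to 49.4, nearly all of it Synpr, a synaptic vesicle protein gene (median 326 against 38.7). Htt was at 4.81 to 11.2 in cortex-like and 12.7 to 20.7 in striatum-like libraries, with KO/+ at 12.7 to 19.7 and +/+ of the KO line at 16.8 to 20.7 in the labelled striatum, and the higher of Xist and Ddx3y matched the sex label of 30 of 60 libraries. Labels of tissue and sex may thus be misassigned, the genotype labels were not tested, and each genotype difference below is one between libraries as labelled. All levels below are rescaled FPKM, the FPKM divided by 1 size factor per library, taken by the median-of-ratios method. Depth was estimated from the deposited FPKM intervals at 12700000 to 27500000 fragments per library. A pair of libraries stood apart from the other cortex-like ones. The library labelled cortical Δ12-line +/+ female 1 had 14912 entries above 0 where the class median was 20645, and the library labelled striatal Δ12/+ male 3 had the Drd2 FPKM of 18.5.

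A class holds all libraries of one labelled line except for Δ12/Δ12, and differences between classes are given as a description with no test. Within the Δ12/Δ12 libraries, of one line and genotype, 6 were cortex-like and 6 striatum-like. There Slc17a7 was at 146 to 164 against 5.6 to 38.5 and Slc32a1 at 12.7 to 17.3 against 57.9 to 83.5. Slc18a3 was at 0.0946 to 0.304 against 2.49 to 4.76 and Slc17a8 at 0.157 to 0.60 against 1.32 to 2.49. These 4 members did not overlap between the classes over all libraries. Their separation among the 12 follows from that and is no separate check on the labelled line. Class and labelled sex cannot be told apart among these 12. In bulk tissue, fewer cells of a type and less RNA per cell cannot be told apart. Sequencing measures also moved with the class. The median size factor was 1.15 in cortex-like and 0.891 in striatum-like libraries, and median levels of genes with an exonic length of 1000 to 2000 nt differed between striatum-like and cortex-like libraries by a median log2 of -0.73, whereas genes above 8000 nt differed by 0.59. The members have exonic lengths of 2413 to 5399 nt, in the range where these medians were -0.20 (2000 to 4000 nt) and 0.30 (4000 to 8000 nt). The part of gene length in the class differences was not tested.

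Of the 7 members, 4 separated the classes without overlap, 3 higher and 1 lower in striatum-like libraries, as did 36.2% of the 16076 entries with a mean level of at least 0.5 (19.3% higher and 16.9% lower). Slc17a7 was higher in every cortex-like library, and Slc32a1, Slc18a3 and Slc17a8 were higher in every striatum-like library. Slc17a6, Slc18a2 and Slc6a3 overlapped. Slc18a2 and Slc6a3 had a mean level under that minimum and are counted among the 7. On the deposited FPKM and after quantile normalization, 2 members were without overlap in place of 4. The lack of overlap of all 4 thus holds for the rescaled levels only. Shares of all entries under those settings are not given here.

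**Figure D1:**
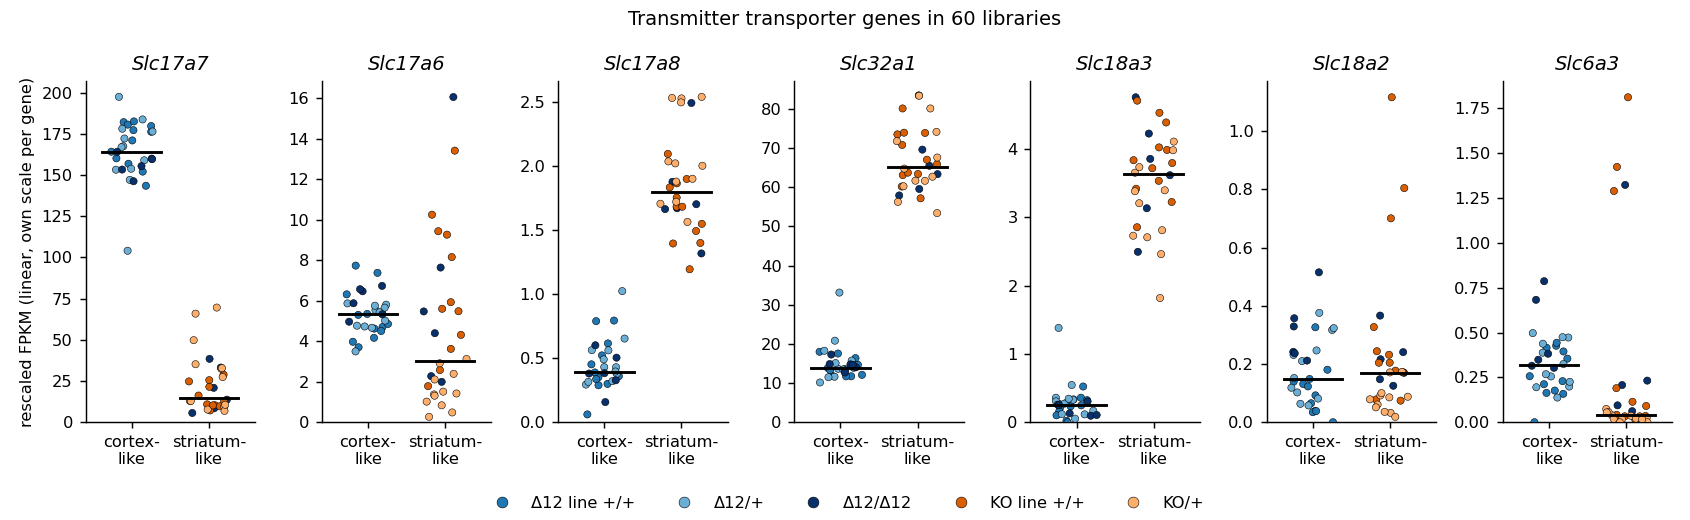
Rescaled FPKM of the 7 transporter genes in 30 cortex-like and 30 striatum-like libraries, each point 1 library coloured by labelled line and genotype and each bar the class median, on a linear scale of its own per gene. Slc17a7 lies at 104 or more in the cortex-like class and at 69.6 or less in the striatum-like class, the reverse order holds for Slc32a1, Slc18a3 and Slc17a8, and 4 striatum-like libraries stand above 1.2 for Slc6a3.

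Slc17a7 was the most abundant member of cortex-like libraries and Slc32a1 that of striatum-like libraries. In cortex-like libraries the lowest level of Slc17a7 was 104, the median 164 and the highest 197. In striatum-like libraries these were 5.6, 14.9 and 69.6, so that the cortex-like median was 11.0 times higher. Slc32a1 had a lowest, median and highest level of 10.1, 14.0 and 33.1 in cortex-like libraries and of 53.4, 65.1 and 83.5 in striatum-like libraries, a median 4.66 times higher in the latter. The lowest Slc17a7 and the highest Slc32a1 of the cortex-like class were both in the library labelled striatal Δ12/+ male 3, which was also nearest to the Drd2 threshold.

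The promoters of 3 of the 4 members without overlap between classes, and of Chat, which encloses Slc18a3, are shown as the reference sequence around each start, from 250 bases before to 50 bases after, in build GRCm38.p6 from RefSeq. All 7 members had an entry. The files place Slc17a7 on chromosome 7 at 45163921 to 45176138 (plus strand) and Slc32a1 on chromosome 2 at 158610767 to 158615748 (plus strand). Slc18a3 lies on chromosome 14 at 32462438 to 32464850 (minus strand), inside the interval of the choline acetyltransferase gene Chat at 32408203 to 32465909 on the same strand, and the 2 starts are 1059 bases apart. The windows are chr7:45163671-45163970 for Slc17a7, chr2:158610508-158610807 for Slc32a1, chr14:32464801-32465100 for Slc18a3 and chr14:32465860-32466159 for Chat, each written 5′ to 3′ on the strand of the gene. Capitals mark the GC box GGGCGG or its reverse complement CCGCCC, and the last pair of matches in Slc17a7 overlaps by 1 base.
Slc17a7: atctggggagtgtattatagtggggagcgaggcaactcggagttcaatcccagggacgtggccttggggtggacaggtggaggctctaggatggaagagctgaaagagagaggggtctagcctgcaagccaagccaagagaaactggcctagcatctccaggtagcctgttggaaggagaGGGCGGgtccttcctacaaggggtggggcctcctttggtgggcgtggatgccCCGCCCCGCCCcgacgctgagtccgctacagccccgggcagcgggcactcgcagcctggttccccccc
Slc32a1: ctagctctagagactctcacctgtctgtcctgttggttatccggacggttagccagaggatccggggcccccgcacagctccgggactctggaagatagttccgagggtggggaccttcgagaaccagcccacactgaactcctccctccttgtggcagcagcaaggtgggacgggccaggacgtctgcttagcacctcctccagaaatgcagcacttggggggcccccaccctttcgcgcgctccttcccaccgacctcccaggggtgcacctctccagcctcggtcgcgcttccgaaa
Slc18a3: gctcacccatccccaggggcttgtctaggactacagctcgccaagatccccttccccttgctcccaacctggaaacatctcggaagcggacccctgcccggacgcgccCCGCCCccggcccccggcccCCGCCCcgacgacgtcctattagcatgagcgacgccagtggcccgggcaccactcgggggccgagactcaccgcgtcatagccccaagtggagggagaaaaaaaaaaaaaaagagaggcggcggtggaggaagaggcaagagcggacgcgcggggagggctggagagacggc
Chat: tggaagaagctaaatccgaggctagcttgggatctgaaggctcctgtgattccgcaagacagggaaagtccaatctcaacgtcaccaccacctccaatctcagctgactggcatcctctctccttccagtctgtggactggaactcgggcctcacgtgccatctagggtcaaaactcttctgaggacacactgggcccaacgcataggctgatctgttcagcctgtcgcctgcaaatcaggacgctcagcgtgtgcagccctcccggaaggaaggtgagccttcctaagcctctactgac

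Among these 4 windows the GC box occurred 3 times in the Slc17a7 window, 2 times in that of Slc18a3 and not in those of Slc32a1 and Chat, and it occurred on either strand in 35.7% of all 32851 windows of this length. The motif TGACGTCA, its own reverse complement, was found once among the members, in the Slc18a2 window on chromosome 19, and in 1.79% of all windows. The motif TATAAA, searched on both strands, was found in no member window and in 13.6% of all. The Slc18a3 window held 27 CpG dinucleotides, that of Slc32a1 17, that of Slc17a7 13 and that of Chat 10, where the median of all windows was 7. These matches describe the letters in the windows only.

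Slc17a6 had a median 1.77 times higher in cortex-like libraries and a far wider spread in striatum-like libraries, within which the cortex-like range lay. Its lowest, median and highest levels were 3.50, 5.34 and 7.74 in cortex-like libraries and 0.266, 3.02 and 16.1 in striatum-like libraries. Slc17a8 had levels of 0.0609, 0.392 and 1.02 in cortex-like libraries and of 1.19, 1.79 and 2.54 in striatum-like libraries, with a median 4.57 times higher. Slc17a7 made up 93.8% to 97.9% of the summed level of the 3 glutamate transporters in cortex-like libraries and 45.4% to 95.6% in striatum-like libraries, where Slc17a6 had a share of 1.71% to 48.2% and Slc17a8 one of 2.36% to 24.5%.

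Slc18a3 showed the largest ratio of class medians among the members that separated the classes. Its lowest, median and highest levels were 0, 0.254 and 1.38 in cortex-like libraries and 1.82, 3.63 and 4.76 in striatum-like libraries, a median 14.3 times higher. The cortex-like values rest on an estimated 0 to 73.6 fragments per library with a median of 11.0, and the striatum-like values on 62.7 to 243. Chat, which encloses Slc18a3, went from a median of 0.389 to one of 4.50, and the ratio of Slc18a3 to Chat had a median of 0.591 in the 29 cortex-like libraries with Chat above 0 and of 0.743 in striatum-like libraries. Because the genes lie on the same strand in overlapping intervals, how fragments were divided between them is uncertain. The library labelled cortical Δ12-line +/+ female 1 was listed at 0 for Slc18a3, Slc18a2, Slc6a3 and Chat.

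Slc18a2 and Slc6a3 were close to the detection limit in most libraries. Slc18a2 had a lowest, median and highest level of 0, 0.150 and 0.515 in cortex-like libraries and of 0.0183, 0.171 and 1.12 in striatum-like libraries. Its values rest on an estimated median of 10.1 fragments in cortex-like and of 9.59 in striatum-like libraries. Slc6a3 was at 0, 0.320 and 0.787 in cortex-like libraries and at 0, 0.0400 and 1.81 in striatum-like libraries. It rested on an estimated median of 18.5 fragments in cortex-like libraries, with 1 of 30 libraries under 3 fragments, and of 1.99 in striatum-like libraries, with 16 of 30 under 3. At fewer than 3 fragments a level could not be distinguished from 0, and the median of Slc6a3 in striatum-like libraries lies in that range.

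Ranked by median level, which is per length and so comparable between genes, the cortex-like order was Slc17a7, Slc32a1, Slc17a6, Slc17a8, Slc6a3, Slc18a3 and Slc18a2. Each of the first 3 exceeded the next in 30 of 30 libraries. Slc17a8 exceeded Slc6a3 in 24 of 30, Slc6a3 exceeded Slc18a3 in 18 of 30 and Slc18a3 exceeded Slc18a2 in 18 of 30. The order of the last 4 thus varied between libraries and was not tested. The striatum-like order was Slc32a1, Slc17a7, Slc18a3, Slc17a6, Slc17a8, Slc18a2 and Slc6a3. Slc32a1 exceeded Slc17a7 in 28 of 30 libraries, and the other 2 were libraries of the labelled cortical KO/+ group. Slc18a3 and Slc17a6 were in either order in 15 of 30 each, and Slc17a6 exceeded Slc17a8 in 20 of 30.

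Whether the KO allele went with a change of the transporters was addressed within the KO line, where all libraries were striatum-like, between libraries as labelled. In the labelled striatum, limma with Benjamini-Hochberg adjustment called 2 of the 5 members tested, 1 higher and 1 lower in KO/+, against 6.91% of 15808 entries (3.51% higher and 3.4% lower). Slc17a6 was lower in every KO/+ library than in every +/+ library. Its lowest, median and highest levels were 0.483, 1.22 and 2.11 in KO/+ and 5.6, 9.35 and 13.4 in +/+, a log2 difference of -2.54 ± 0.24 (SE, n = 6 and 6, limma adjusted p = 0.000706). It was the 1 member of the 5 without overlap between the groups, against 4.58% of entries (2.1% higher and 2.48% lower). The call for Slc17a6 held when each library was left out in turn, with log2 differences of -2.70 to -2.39.

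Slc17a8 was higher in KO/+, at 1.56, 2.26 and 2.54 against 1.39, 1.52 and 1.86 in +/+, with groups that overlapped. The log2 difference was 0.36 ± 0.09 (SE, limma adjusted p = 0.0425). This call was lost in 8 of the 12 fits that left out 1 library (adjusted p up to 0.0991) and under 5 of 7 other settings, the highest adjusted p being 0.19 on the deposited FPKM. Slc17a7 ranged from 6.86 to 35.2 in KO/+ and from 9.68 to 25.5 in +/+ (log2 difference 0.21 ± 0.43, limma adjusted p = 0.832). Slc32a1 differed by 0.15 ± 0.08 (limma adjusted p = 0.30) and Slc18a3 by -0.03 ± 0.10 (limma adjusted p = 0.894), so no difference was detected for either, and their groups overlapped.

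Genes used as thalamic markers moved with Slc17a6. All 5 genes of that list were lower in KO/+ in the labelled striatum, with a summed level of 20.7 to 29.2 against 58.4 to 90.2 in +/+ and none at 0. Prkcd, a protein kinase C enriched in thalamic neurons, differed by -2.46 ± 0.24 and Tcf7l2, a transcription factor of the thalamus, by -1.30 ± 0.13 (limma adjusted p = 0.000819 and 0.000897). Of the 6 hypothalamic neuropeptide and factor genes, 3 of the 4 tested were lower, Pmch, Avp and Oxt, and the sum was 0 to 1.55 against 6.16 to 139. Pmch was listed at 0 in 5 of 6 KO/+ libraries. Of 8 striatal projection neuron markers, 6 were higher, at a sum of 1499.6 to 1953 against 1071 to 1425, and of 7 cortical excitatory markers 3 were higher, at a sum of 30.4 to 40.7 against 21.7 to 28.3. Of the glial lists, 2 of 3 oligodendrocyte genes and 1 of 4 astrocyte genes were lower. The part of these markers in the difference of Slc17a6 was not tested.

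Slc18a2 and Slc6a3 had a mean level under the minimum of 0.5 and were compared by an exact permutation test over every division of the libraries into groups of 6 (two-sided, smallest possible p = 0.00216). In the labelled striatum, Slc18a2 had levels of 0.0183, 0.0832 and 0.171 in KO/+ and of 0.0782, 0.466 and 1.12 in +/+ (difference in mean log2 -0.71, exact p = 0.0152). Slc6a3 was at 0.0158, 0.0372 and 0.0740 in KO/+ and at 0.0198, 0.690 and 1.81 in +/+, where 3 libraries were high and 3 low (difference -0.95, exact p = 0.0693). Over all comparisons 25 such tests were made, 6 had p under 0.05 before adjustment for their number, and all 6 were of Slc18a2. These 6 are not independent, because the labelled striatal +/+ groups of both lines each enter several of them.

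In the labelled cortex of the KO line, limma called none of the 5 members tested, where 0.0885% of 15820 entries were called and 2202 had an unadjusted p under 0.05. The smallest adjusted p among members was that of Slc18a3, at 1.82, 2.76 and 3.98 in KO/+ and 3.53, 3.93 and 4.71 in +/+ (log2 difference -0.48 ± 0.14, limma adjusted p = 0.202). Slc17a6 was at 0.266, 1.88 and 3.12 in KO/+ and at 1.78, 3.97 and 5.93 in +/+ (-0.98 ± 0.38, adjusted p = 0.292, limma). Slc17a7 ranged from 9.50 to 69.6 in KO/+ and from 7.15 to 28.9 in +/+ (1.04 ± 0.54, adjusted p = 0.423, limma). Slc18a2 was again lower in KO/+, at 0.0355 to 0.173 against 0.0742 to 0.327 (difference in mean log2 -0.27, exact permutation p = 0.0152, unadjusted). Whether the KO/+ differences of Slc17a6 were unequal in the labelled tissues was not tested.

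**Figure D2:**
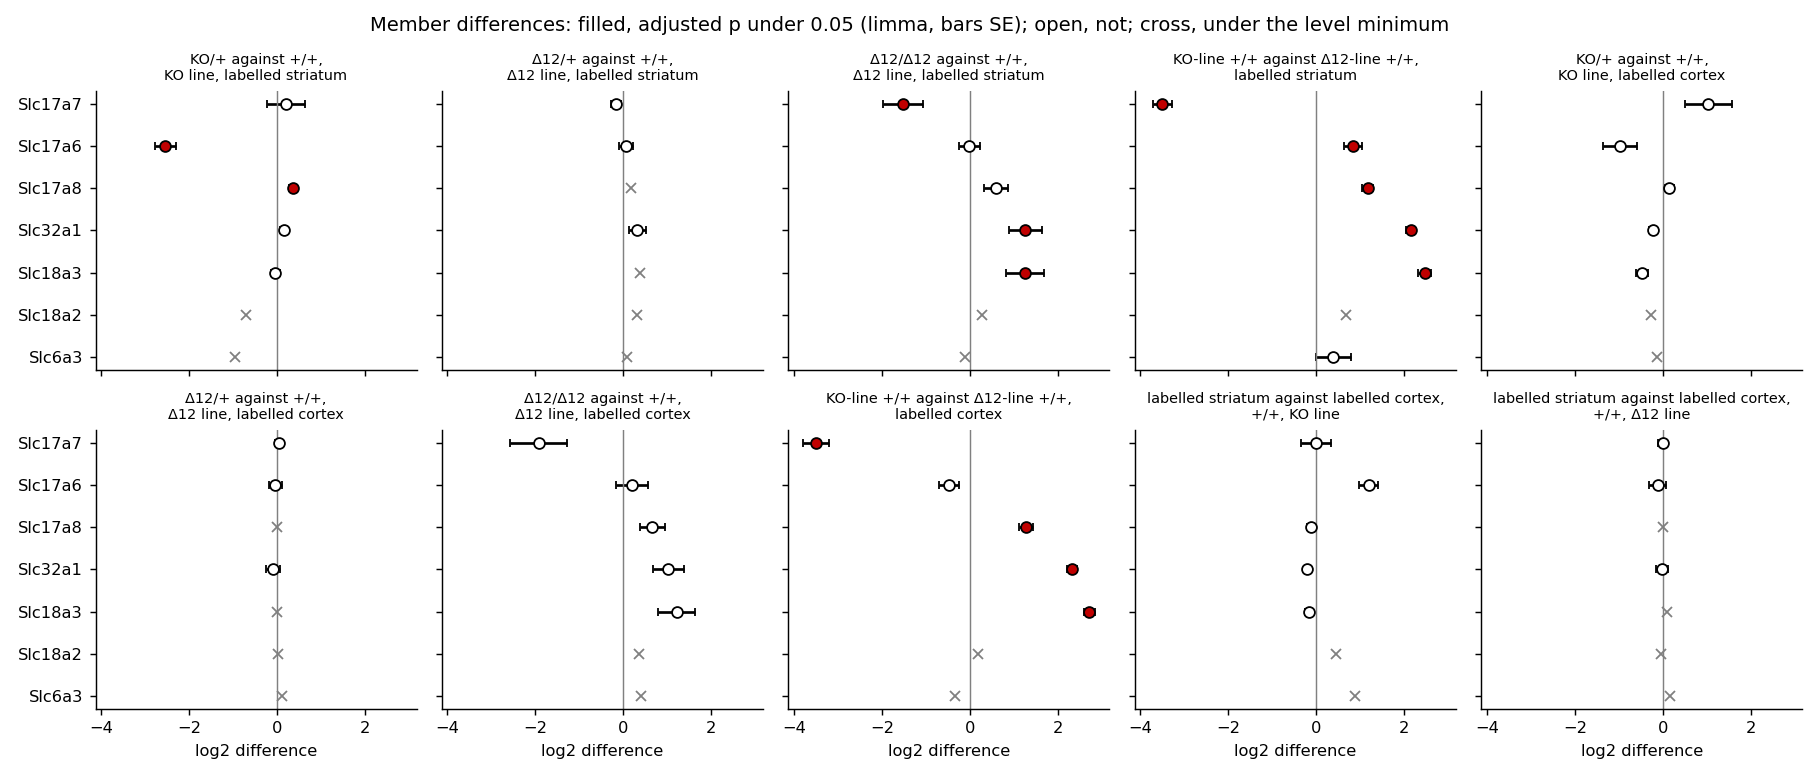
Log2 differences of the 7 transporter genes (pseudocount 0.5) in the 10 comparisons, each with 6 libraries a group, with filled points at limma adjusted p under 0.05, open points above it, bars for the SE, and crosses for genes under the level minimum. Filled points stand for Slc17a6 and Slc17a8 in KO/+ of the labelled striatum, for Slc17a7, Slc32a1 and Slc18a3 in Δ12/Δ12 of the labelled striatum, and for 5 and 4 genes between the +/+ groups of the lines.

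Heterozygous Δ12 libraries and their +/+ controls were all cortex-like, and limma called none of the 3 members tested in either labelled tissue. In the labelled striatum 0.00663% of 15077 entries were called and 486 had an unadjusted p under 0.05, and in the labelled cortex 0.0662% of 15095 and 1263. Slc17a7 differed by -0.17 ± 0.12 in the labelled striatum and by 0.05 ± 0.10 in the labelled cortex, and Slc17a6 by 0.05 ± 0.16 and -0.03 ± 0.15. Slc32a1 differed by 0.32 ± 0.19 in the labelled striatum, where the library of Δ12/+ male 3 was at 33.1 and the other 5 at 13.2 to 20.8, and by -0.08 ± 0.16 in the labelled cortex. At 2 SE the intervals of these 3 genes reach from -0.41 to 0.70 over both labelled tissues. Over 7 other settings the difference of Slc17a7 in the labelled cortex ranged from 0.047 to 0.51 (limma adjusted p of 0.0821 or more). The upper value lies outside its 2 SE interval of -0.15 to 0.24, so this difference depended on the processing. Slc18a2 was at 0.102 to 0.376 in Δ12/+ and at 0.0345 to 0.149 in +/+ of the labelled striatum (difference in mean log2 0.32, exact permutation p = 0.0260, unadjusted) and differed by 0.03 in the labelled cortex (exact permutation p = 0.825).

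In the Δ12/Δ12 groups the labelled males were cortex-like and the labelled females striatum-like, so the genotype was compared across a group of mixed class. In the labelled striatum 3 of 5 members tested were called, 2 higher and 1 lower, against 28.3% of 15467 entries (14.7% higher and 13.6% lower). Slc17a7 fell into 2 ranges, 153 to 164 in the 3 labelled males and 13.7 to 33.2 in the 3 labelled females, with 152 to 182 in +/+ (log2 difference -1.52 ± 0.46, limma adjusted p = 0.0390). Slc32a1 was at 14.6 to 17.3 in the males and 65.5 to 83.5 in the females, with 11.7 to 18.0 in +/+ (1.26 ± 0.37, limma adjusted p = 0.0384). Slc18a3 was at 0.105 to 0.304 in the males and 3.62 to 4.76 in the females, with 0.0211 to 0.522 in +/+ (1.25 ± 0.43, limma adjusted p just under the threshold of 0.05), a call kept in 1 of 8 other settings. With the expression class as a covariate the differences were -0.12 for Slc17a7, 0.08 for Slc32a1 and -0.06 for Slc18a3, and none was called. Leaving out any 1 of the libraries labelled female, of either genotype, removed all 3 calls.

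In the labelled cortex, limma called none of 5 members in Δ12/Δ12, where 0.924% of 15696 entries were called and 5978 had an unadjusted p under 0.05. The labelled males again lay with +/+, with Slc17a7 at 146 to 160 against 143 to 183, and the labelled females at 5.6 to 38.5. Slc18a2 was higher in Δ12/Δ12 in both labelled tissues by the exact permutation test, unadjusted. It was at 0.148 to 0.357 against 0.0345 to 0.149 in the labelled striatum (p = 0.00433, exact) and at 0.125 to 0.515 against 0 to 0.326 in the labelled cortex (p = 0.0390, exact). In the labelled striatum the 3 male libraries were at 0.237 to 0.357 and the 3 female libraries at 0.148 to 0.216.

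The +/+ mice of the lines carry the same genotype at Htt, and their libraries were all of different class. In the labelled striatum 5 of 6 members tested were called, 4 higher and 1 lower in the KO line, where 79.4% of 15712 entries were called (41.9% higher and 37.4% lower). In the labelled cortex 4 of 5 were called, 3 higher and 1 lower, where 68% of 15800 were (36.5% higher and 31.6% lower). The 4 members that separate the classes on rescaled FPKM were called in both labelled tissues. They did not overlap in either, as was true of 62.6% of entries in the labelled striatum (33.4% higher and 29.2% lower) and 51.1% in the labelled cortex (27.7% and 23.4%). These groups lie within the classes, so the lack of overlap follows from that between classes and is no further support. Nor are the calls of these 4 members separate support. The log2 differences in the labelled striatum and labelled cortex were -3.50 ± 0.21 and -3.49 ± 0.30 for Slc17a7, 2.46 ± 0.15 and 2.72 ± 0.13 for Slc18a3, 2.14 ± 0.10 and 2.33 ± 0.12 for Slc32a1, and 1.17 ± 0.13 and 1.28 ± 0.16 for Slc17a8 (limma adjusted p at most 2.95e-05). Slc17a6 was higher in the KO line in the labelled striatum, at 5.6 to 13.4 against 3.70 to 7.38 (0.83 ± 0.20, limma adjusted p = 0.00251), but not called in the labelled cortex, at 1.78 to 5.93 against 4.17 to 7.74 (-0.48 ± 0.23, limma adjusted p = 0.0842). Line, class and sequencing measures cannot be told apart in these comparisons.

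The labelled tissues of +/+ mice were compared within each line. In the KO line limma called 0 of 15669 entries, with 1882 at an unadjusted p under 0.05 and 0 members among the 5 tested. Slc17a6 was at 5.6 to 13.4 in the labelled striatum and 1.78 to 5.93 in the labelled cortex (log2 difference 1.19 ± 0.22, limma adjusted p = 0.0968). Slc17a7, known as far higher in cortex than in striatum, differed by -0.01 ± 0.34 (limma adjusted p = 0.996). In the Δ12 line 0.0132% of 15127 entries were called and 785 had an unadjusted p under 0.05, and none of the 3 members tested was called, with Slc17a7 at 152 to 182 in the labelled striatum and 143 to 183 in the labelled cortex.

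Each member was set beside chosen partner genes, within a class, over 30 libraries, on the log2 scale with the pseudocount of 0.5. Over 14 such pairs in each class, 28 in all, p-values from 100000 permutations were adjusted over the 28 by the Benjamini-Hochberg method. Groups with different labels sit inside a class, so the correlation was computed again with labelled group means removed. Slc17a6 and Tcf7l2 were the closest pair in striatum-like libraries (Pearson r = 0.912, Spearman rho = 0.916, permutation p = 1e-05 for each, the smallest that can be given, adjusted 4.67e-05 and 9.33e-05). The r was 0.889 without the 2 libraries farthest from the median of Tcf7l2, 0.921 in the 24 KO-line libraries and 0.825 with group means removed. In cortex-like libraries the same pair had r = 0.0954 and rho = 0.248 (permutation p = 0.616 and 0.186, adjusted 0.690 and 0.250).

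**Figure D3:**
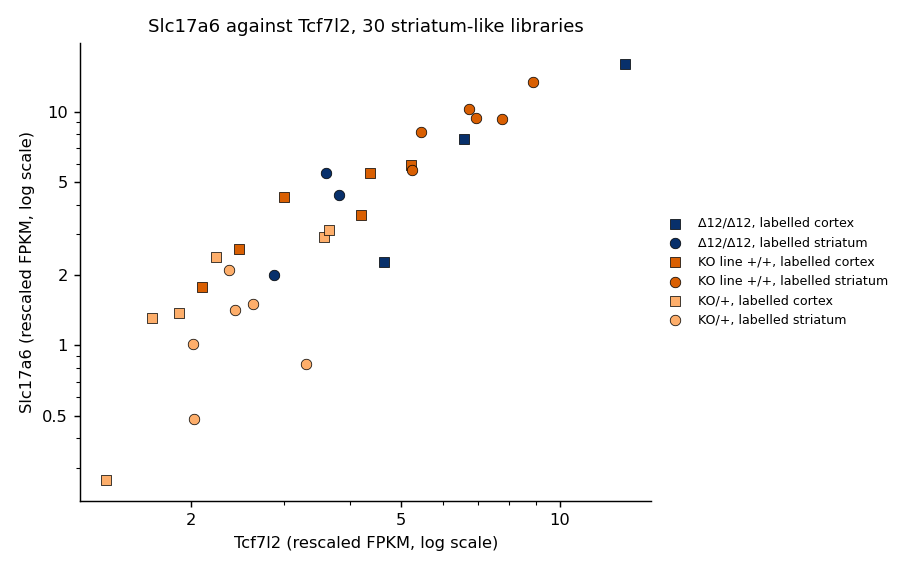
Slc17a6 against the thalamic transcription factor gene Tcf7l2 in the 30 striatum-like libraries, rescaled FPKM on log scales, coloured by labelled genotype with squares for labelled cortex and circles for labelled striatum. The libraries spread along 1 band from 0.266 to 16.1 for Slc17a6, with the KO/+ libraries at 3.12 or less.

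Slc17a7 was related to Slc30a3, the vesicular zinc transporter of glutamate neurons, in striatum-like libraries. For this pair r was 0.793 and rho 0.787 (permutation p = 1e-05 for each, adjusted 4.67e-05 and 9.33e-05), and 0.761 without the 2 farthest libraries. In cortex-like libraries the values were 0.181 and 0.248 (permutation adjusted p = 0.414 and 0.250), but on the deposited FPKM rho was 0.620 and passed (permutation adjusted p = 0.000784). With labelled group means removed, r of this pair was 0.795 in striatum-like and -0.062 in cortex-like libraries. The difference between the classes was not tested. Slc17a7 and Slc17a6 were unrelated in rank in striatum-like libraries, with r = -0.00178 and rho = -0.0158 (permutation p = 0.993 and 0.935, adjusted to the same values), although r was 0.437 with labelled group means removed.

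Slc32a1 was related to the genes of GABA synthesis in both classes. With Gad1, r and rho were 0.758 and 0.657 in striatum-like libraries (permutation p = 1e-05 and 9e-05, adjusted 4.67e-05 and 0.00036) and 0.569 and 0.623 in cortex-like libraries (permutation p = 0.00069 and 0.00041, adjusted 0.00149 and 0.00128). With Gad2 they were 0.724 and 0.667 in striatum-like and 0.739 and 0.557 in cortex-like libraries (permutation adjusted p at most 0.00476). Without the 2 farthest libraries the 4 values of r were 0.656, 0.415, 0.603 and 0.567 in that order. With labelled group means removed they were 0.791, 0.604, 0.670 and 0.773. The ratio of Slc32a1 to Gad1 itself was 0.366 to 0.510 in striatum-like and 0.152 to 0.352 in cortex-like libraries.

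Slc18a3 was related to Chat, the gene that encloses it, in both classes. The r and rho were 0.699 and 0.686 in striatum-like libraries (permutation p = 3e-05 and 6e-05, adjusted 9.33e-05 and 0.000336) and 0.836 and 0.724 in cortex-like libraries (permutation p = 1e-05 for each, adjusted 4.67e-05 and 9.33e-05), and r was 0.655 and 0.642 without the 2 farthest. Slc5a7, the choline transporter of the plasma membrane, is on another chromosome and gave 0.746 and 0.727 in striatum-like libraries (permutation p = 2e-05 for each, adjusted 8e-05 and 0.00014), 0.743 without the 2 farthest. In cortex-like libraries Slc5a7 gave 0.680 and 0.488 (permutation adjusted p = 0.000331 and 0.0157), and without the 2 libraries that stood apart rho was 0.382 and no longer passed (permutation adjusted p = 0.0769). Slc17a8 with Chat had r = 0.538 and rho = 0.407 in striatum-like (permutation adjusted p = 0.00436 and 0.0453) and 0.651 and 0.522 in cortex-like libraries (permutation adjusted p = 0.00042 and 0.00914), where r was 0.365 without the 2 farthest and rho was 0.412 without the 2 libraries that stood apart (permutation adjusted p = 0.0544). With labelled group means removed, r of Slc18a3 with Chat was 0.558 in striatum-like and 0.804 in cortex-like libraries. In the same order r was 0.581 and 0.695 for Slc18a3 with Slc5a7, and 0.824 and 0.690 for Slc17a8 with Chat. Slc17a8 with Vip, a gene of interneurons, gave no relation past the threshold in either class, with r = -0.154 and -0.181 and rho = -0.0919 and -0.156 (permutation adjusted p = 0.414 or more).

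**Figure D4:**
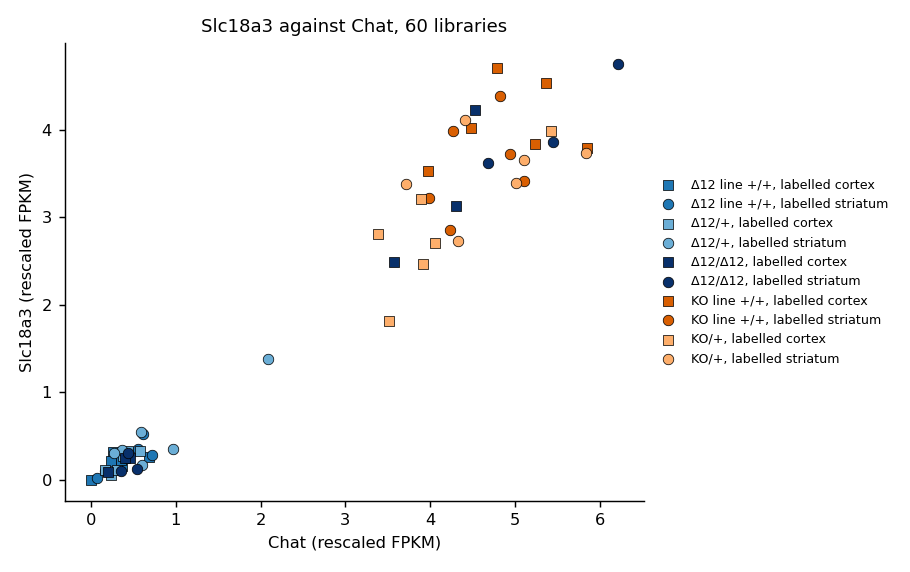
Slc18a3 against Chat in all 60 libraries, rescaled FPKM on linear scales, coloured by labelled line and genotype with squares for labelled cortex and circles for labelled striatum. Striatum-like libraries lie at 1.82 or more for Slc18a3 and 3.39 or more for Chat, cortex-like ones below 1 for both except for 1 library at 1.38 and 2.09.

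Slc6a3 and Slc18a2 were high together in 4 striatum-like libraries. Slc6a3 was at 1.42, 1.29 and 1.81 in the libraries labelled striatal KO-line +/+ male 1, female 1 and female 3, on an estimated 98.5, 91.3 and 104 fragments, and at 1.32 in the library labelled cortical Δ12/Δ12 female 1. Slc18a2 was at 0.805, 0.701, 1.12 and 0.367 in the same 4. The other 26 striatum-like libraries had Slc6a3 at 0.232 or less. The same 4 libraries had Slc17a6 at 13.4, 9.44, 10.3 and 16.1, Prkcd at 44.4, 44.5, 47.3 and 70.4 and Pmch, a peptide of lateral hypothalamic neurons, at 58.5, 34.9, 37.2 and 23.3. High Slc17a6 and thalamic markers were not particular to them. All 6 libraries of the labelled striatal KO-line +/+ group, also those with low Slc6a3, had Slc17a6 at 5.6 to 13.4. Their summed thalamic markers were at 58.4 to 90.2. Th, the enzyme that makes the dopamine precursor, was at 2.21 to 2.50 in these 4 and at 0.995 to 3.89 over the class, so they were within its range.

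Over all 30 striatum-like libraries, Slc18a2 and Slc6a3 had r = 0.867 and rho = 0.438 (permutation adjusted p = 4.67e-05 and 0.0296). The r was 0.715 without the 2 farthest, and r and rho were 0.820 and 0.588 with labelled group means removed. The 4 libraries with high Slc6a3 form a set apart from the other 26. Correlations of these genes are therefore also given over the 26, a set chosen after the values were seen, with unadjusted p. Over these 26, Slc18a2 and Slc6a3 had r = 0.238 and rho = 0.137 (permutation p = 0.245 and 0.505), and r was 0.175 without the 2 farthest. In cortex-like libraries r was 0.400 and rho 0.225 (permutation adjusted p = 0.0497 and 0.293), and r was 0.101 without the 2 farthest. With Th among the 26, Slc18a2 had r = 0.348 and rho = 0.361 (permutation p = 0.0826 and 0.0707, r = 0.275 without the 2 farthest) and Slc6a3 had r = 0.248 and rho = 0.379 (permutation p = 0.221 and 0.0566, r = 0.364 without the 2 farthest), so neither passed. Over all 30 each had passed by rank, with rho of 0.457 and 0.460 (permutation adjusted p = 0.0241 for both), and rho was 0.401 and 0.259 with labelled group means removed. In cortex-like libraries neither pair with Th passed (permutation adjusted p of 0.101 or more), but rho of Slc6a3 with Th, 0.347, was 0.437 on the deposited FPKM and 0.467 without the 2 libraries that stood apart, and then passed (permutation adjusted p = 0.0269 and 0.0260). Slc18a2 with Tph2 of serotonin synthesis passed in neither class (permutation adjusted p of 0.120 or more). Fev of serotonin neurons was listed at 0 in 60 libraries, the noradrenaline transporter gene Slc6a2 was at 0.0402 or less, and Pitx3, En1 and Foxa2 of midbrain dopamine neurons had class medians of 0 to 0.0179. In the labelled striatal KO-line +/+ group, which holds 3 of the 4 libraries with high Slc6a3, Pitx3 reached 0.599 and En1 0.188, with medians of 0.0792 and 0.0408. The summed level of the 7 dopaminergic markers, of which Slc6a3 is one, was 10.6 to 29.3 in cortex-like and 13.4 to 36.6 in striatum-like libraries, and 21.0 to 36.6 in that group. The part of these markers in the levels of Slc6a3 and Slc18a2 was not tested.

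**Figure D5:**
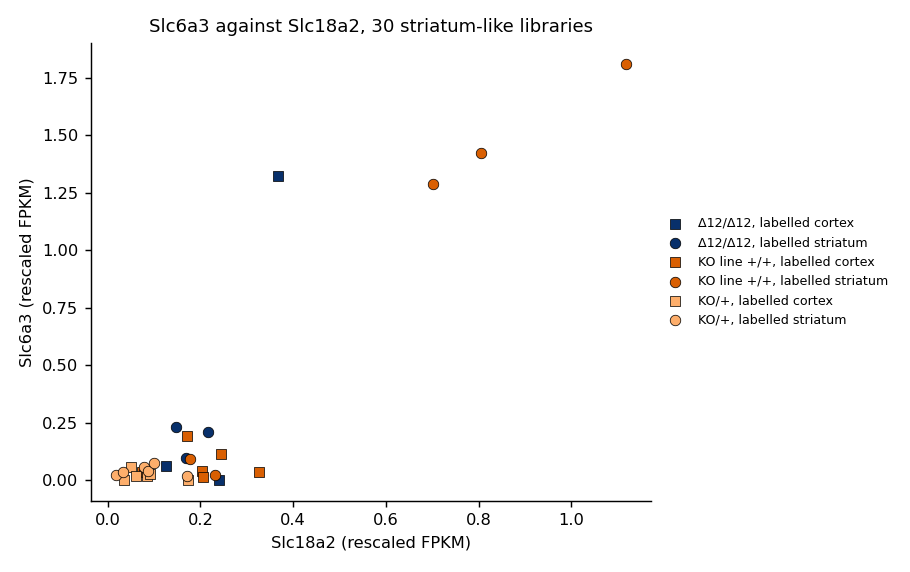
Slc6a3 against Slc18a2 in the 30 striatum-like libraries, rescaled FPKM on linear scales, with squares for labelled cortex and circles for labelled striatum. A set of 4 libraries has Slc6a3 at 1.29 to 1.81 and Slc18a2 at 0.367 to 1.12, and the other 26 have Slc6a3 at 0.232 or less.

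The genes most like each member by rank over the 30 libraries of a class are given as a description, with no test. Slc17a6 in striatum-like libraries was followed most closely by Kcnc2, a potassium channel gene (Spearman rho = 0.985), Hapln4, a link protein of perineuronal matrix (0.974), and Nrip3 (0.967), out of 13974 genes with a mean level of at least 1. Slc17a7 was nearest to Pgm2l1 (0.903), the neuropeptide gene Cck (0.900) and 3110035E14Rik (0.891) in striatum-like libraries, and to Syt13 (0.842), Gfra2 (0.810) and Crtac1 (0.803) in cortex-like libraries out of 13530 genes. Slc17a8 was nearest to Ngef (0.857), Smarcd1 (0.854) and Wscd2 (0.840), and Slc18a3 to Acly (0.764), Guk1 (0.758) and Chtop (0.756), both in striatum-like libraries. Slc32a1 was nearest to Gm12892 (0.854), Arf1 (0.853) and Gm5424 (0.846) in striatum-like libraries and to Cx3cr1 (0.748), Adgrg1 (0.737) and Tril (0.734) in cortex-like libraries. Slc17a6 in cortex-like libraries was nearest to Ubxn4 (0.724), Tmed10 (0.706) and Hspd1 (0.651).

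Other genes of transmitter handling were read from fixed lists. Of the 16076 entries with a mean level of at least 0.5, 36.2% did not overlap between classes (19.3% higher and 16.9% lower). The list counts between classes include genes under that minimum. Of 9 other genes of vesicle filling and vesicle membrane, 3 were higher and 2 lower in every striatum-like library. Sv2c and Sv2a, vesicle glycoproteins, had medians of 25.5 against 3.54 and 70.1 against 39.7, Slc10a4, a vesicle protein of cholinergic and monoamine neurons, 5.06 against 0.256, while Sv2b had 21.4 against 123 and Slc30a3 0.649 against 8.49. Of 17 plasma membrane transporters, 5 were higher without overlap, among them Slc1a1, Slc6a11, Slc5a7 and Slc22a3, and Slc6a13, a transporter of meninges and liver, was lower. Of 17 synthesis and breakdown enzymes, 6 were higher without overlap, Gad1, Gad2, Abat, Aldh5a1, Chat and Maob, and 1 was lower, the glutaminase gene Gls2 at 3.66 against 8.89. Of 16 subunits and accessory proteins of the vesicular proton pump, which builds the gradient the members use, Atp6v0a1 was higher and 9 were lower, Atp6v0b the most with 71.5 against 838. Genes with an exonic length of 500 to 1000 nt as a whole had a median log2 of -0.98, striatum-like minus cortex-like. The part of gene length in these list differences was not tested.

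Within the KO line in the labelled striatum 2 of 7, 2 of 12, 2 of 14 and 1 of 16 tested genes of these lists were called, against 6.91% of entries. Of the 7 tested other vesicle genes Sv2c was higher (log2 difference 0.40 ± 0.09) and Sv2a lower (-0.21 ± 0.06). Of 12 plasma membrane transporters Slc6a11, a GABA transporter of astrocytes, and Slc6a9, a glycine transporter, were lower (-0.84 ± 0.10 and -0.52 ± 0.08). Of 14 enzymes 1 was higher and 1 lower, the latter Ache, which breaks down acetylcholine (-0.27 ± 0.07), and of 16 proton pump genes Atp6ap2 was lower (-0.23 ± 0.05). All of these had limma adjusted p at most 0.0474. The list medians were between -0.06 and 0.02, where the median of all entries was 0.02.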

How the data were processed

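Gene-level FPKM with confidence bounds were deposited by the authors in 1 table per library, and per the labels the processing notes name GRCm38.p4, bcl2fastq 2.20, Trimmomatic 0.30, TopHat2 2.0.14, SAMtools 1.3 and HTSeq 0.6.1p1. The annotation release and the program that made the FPKM are not given in the sources used here. Of 47597 entries, 23 that lacked the status OK in at least 1 library were dropped. Size factors were taken over 13235 genes. Log2(rescaled FPKM + 0.5) of entries with a mean of at least 0.5 over the libraries compared was fitted with limma 3.58.1 (R 4.3.3), with labelled sex as a covariate, and a call is a Benjamini-Hochberg adjusted p under 0.05 over all entries. Differences are on that scale, which understates changes of low genes. Fragments were estimated from the width of the FPKM interval, and came within 0.05 of a whole number in 34 of 56 values of Slc18a3 and 43 of 56 of Slc6a3, so no count test was run. The expression class was used for description, to group the libraries of the pair tests, and as a covariate in an alternative fit of Δ12/Δ12. No test compared the classes as such, but the +/+ groups of the lines, which were tested, differ in class as well as in line. Permutation tests and figures used Python 3.11.15, scipy 1.17.1 and matplotlib 3.10.9, with permutation tests two-sided. The fit was tested on simulated data. Exonic lengths are from GENCODE M21. The members, gene lists, class rule and tests were chosen with earlier results of these data known. Named genes are the members, the pair partners, the 3 nearest genes by rank, and of each list up to 4 by adjusted p. Genes named for not overlapping between classes or for their level were chosen after their values were seen. Results of some listed genes and of 1 pair partner are not reported here.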

Additional observations from a re-analysis of the deposited data

Results flagged for a closer look

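Of 70 sets of 6 values 2 held a library far from the other 5, by Dixon's criterion, which chance alone would meet in about 1 set of 20. Both were in the library labelled striatal Δ12/+ male 3, where Slc17a8 was at 1.02 against 0.315 to 0.562 in the others and Slc18a3 was at 1.38 against 0.168 to 0.544.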

How the results depend on the processing

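The difference of Slc17a6 between KO/+ and +/+ in the labelled striatum passed the threshold under 7 of 7 settings and without each library. The number of members called there was 2, and 1 on the deposited FPKM, with quantile normalization, with no filter, without labelled sex and with the replicate block, and between 1 and 2 with a library left out. For Δ12/Δ12 in the labelled striatum the number was 3, and 2 on the deposited FPKM and with a pseudocount of 0.1, 1 with quantile normalization, 0 with no filter, without labelled sex, with the replicate block and with the expression class as covariate, and between 0 and 3 with a library left out. In the labelled cortex it was 0, and between 0 and 3 with a library left out, 3 without +/+ male 2. The number of members without overlap between classes was 4, and 2 on the deposited FPKM or with quantile normalization. The replicate numbers did not pair the samples (correlations of same-numbered deviations -0.23 to 0.16), and the replicate block changed the number of calls in no other comparison. The causes were not tested.

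With the expression class as covariate the Δ12/Δ12 differences changed sign in the labelled striatum to -0.17 for Slc17a8, 0.29 for Slc17a6 and -0.063 for Slc18a3, and in the labelled cortex to -0.12 for Slc17a8, -0.038 for Slc32a1 and -0.084 for Slc18a3. Other sign changes were of differences near 0 that passed under no setting. For Δ12/+ in the labelled cortex Slc17a6 was 0.028 on the deposited FPKM and 0.027 with quantile normalization, and Slc32a1 0.011 with quantile normalization. Between labelled tissues, Slc17a7 was 0.0081 in the KO line with quantile normalization, and in the Δ12 line Slc32a1 was 0.043 and 0.032 and Slc17a7 0.062 and 0.21 on the deposited FPKM and with quantile normalization.

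The Spearman rho of Slc17a7 with Slc17a6 turned to 0.274 and 0.178 in cortex-like libraries and to 0.0643 and 0.000667 in striatum-like libraries on the same 2 settings. On the deposited FPKM Slc18a2 with Th turned to 0.0180 in cortex-like and Slc17a8 with Vip to 0.0736 in striatum-like libraries, and with quantile normalization Slc18a2 with Tph2 to 0.0145 in striatum-like libraries. Slc18a2 with Th was 0.0400 without the 2 cortex-like libraries that stood apart, a setting chosen after the data were seen. Pairs not called in cortex-like libraries passed by rank for Slc17a7 with Slc30a3 on the deposited FPKM (0.620) and for Slc6a3 with Th on the deposited FPKM (0.437) and without those 2 libraries (0.467).

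With 1 library left out, differences that crossed 0 ranged for KO/+ in the labelled striatum from -0.094 to 0.020 (Slc18a3), for Δ12/+ in the labelled striatum from -0.047 to 0.15 (Slc17a6), for Δ12/Δ12 in the labelled striatum from -0.14 to 0.19 (Slc17a6), for Δ12/+ in the labelled cortex from -0.11 to 0.069 (Slc17a6) and -0.011 to 0.069 (Slc17a7), for Δ12/Δ12 in the labelled cortex from -0.090 to 0.48 (Slc17a6), between labelled tissues in the KO line from -0.17 to 0.21 (Slc17a7), and in the Δ12 line from -0.23 to 0.0025 (Slc17a6), -0.089 to 0.041 (Slc32a1) and -0.048 to 0.029 (Slc17a7). Estimated fragments limit Slc18a2 and Slc6a3 most.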
